A study of Mus musculus with 6 samples.

Results

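The genes described here encode the machinery that couples glucose to electrical activity in the pancreatic beta cell. They were the 8 listed genes Slc2a2, G6pc2, Kcnj11, Abcc8, Cacna1c, Cacna1d, Slc30a8 and Trpm5, out of 20659 genes with a RefSeq symbol on the array, and every non-control probe whose transcript identifier belonged to one of them was used, 11 probes in all. The islets, the endocrine cell clusters of the pancreas, came from male C57BL6 mice aged 8 weeks that ate rodent chow and lived in 12 h light and 12 h dark. Pools were taken at zeitgeber times ZT0, ZT4, ZT8, ZT12, ZT16 and ZT20, where ZT0 is lights on and ZT12 is lights off; ZT12 is counted with the dark below. Each time point was 1 Agilent array hybridised with RNA pooled from 3 to 5 mice, so no time point had a replicate and the spread between mice was not measured. The labels name no engineered allele and no treatment, and a pool of whole islets holds alpha, delta and other cells beside beta cells.

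As background, glucose enters the mouse beta cell through the transporter GLUT2, is phosphorylated by glucokinase and is metabolised to ATP, which closes ATP-sensitive potassium (KATP) channels. The resulting depolarisation opens voltage-gated calcium channels, and the calcium that enters triggers exocytosis of insulin granules. Islets are known to hold their own circadian clock, and insulin secretion is known to vary with time of day.

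Promoter sequences were read for 5 of the 8 genes (Slc2a2, G6pc2, Cacna1c, Cacna1d and Trpm5), which had 9 promoters among the 32851 in RefSeq, GRCm38.p6, each running from 250 bases before a transcription start to 50 bases after it. Those of Slc2a2 and G6pc2 are shown because these genes differed most between times within the glucose entry and metabolism step, and that of Trpm5 because its time profile departed from theirs at ZT0. The capitals mark 6-base motif matches, AGGTCA in Slc2a2 and AGGTCA and CAGATG, the reverse complement of CATCTG, in G6pc2.
Slc2a2, chr3:28697653-28697952, + strand: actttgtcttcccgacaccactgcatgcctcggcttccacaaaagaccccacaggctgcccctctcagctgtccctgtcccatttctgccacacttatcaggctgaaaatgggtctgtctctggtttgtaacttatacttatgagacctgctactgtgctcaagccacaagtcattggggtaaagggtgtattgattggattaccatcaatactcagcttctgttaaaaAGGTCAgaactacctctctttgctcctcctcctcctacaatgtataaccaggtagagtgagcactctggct
G6pc2, chr2:69219699-69219998, + strand: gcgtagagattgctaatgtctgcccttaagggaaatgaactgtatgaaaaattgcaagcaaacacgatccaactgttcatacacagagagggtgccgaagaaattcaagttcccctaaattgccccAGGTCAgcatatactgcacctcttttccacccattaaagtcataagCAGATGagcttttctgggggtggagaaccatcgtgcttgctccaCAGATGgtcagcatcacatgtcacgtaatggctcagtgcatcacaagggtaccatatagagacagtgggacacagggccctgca
Trpm5, chr7:143094593-143094892, - strand: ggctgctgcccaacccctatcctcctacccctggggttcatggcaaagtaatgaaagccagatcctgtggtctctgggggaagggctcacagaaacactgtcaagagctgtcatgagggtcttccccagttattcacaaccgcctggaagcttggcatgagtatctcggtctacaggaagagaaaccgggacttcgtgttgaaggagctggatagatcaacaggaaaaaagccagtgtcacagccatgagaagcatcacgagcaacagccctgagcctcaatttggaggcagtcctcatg
Both strands were searched for 6 motifs. The E-box bound by CLOCK and BMAL1 was searched as CACGTG, and the nuclear receptor motif that REV-ERB and ROR proteins use as AGGTCA. A D-box was searched as TTATGTAA, and the E-box of insulin genes as CATCTG. The homeodomain core was searched as TAATTA, and the core promoter element as TATAAA. In all promoters together, CACGTG was held by 7.15%, the receptor motif by 16.26% and the D-box by 0.938%. The insulin gene E-box was held by 17.15%, the homeodomain core by 5.29% and the core promoter element by 13.62%. Counted from the transcription start, the receptor motif began at -21 in Slc2a2 and at -124 in this promoter of G6pc2, where the insulin gene E-box matches began at -78 and -34. The Trpm5 promoter and the other promoter of G6pc2, at chr2:69210823-69211122 on the + strand, held none of the 6. A match is a match of letters only.

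The main pattern in the 7 genes that could be tested was a low level on 2 arrays, on the probes used. All 7 had their lowest level at ZT4 or ZT12, which was true of 44.5% of the 24127 genes tested. Cacna1c, which encodes an L-type calcium channel pore, was not well above background on any array. The 5 genes detected on all arrays were lowest at ZT12. The lowest values of Kcnj11 and Cacna1d were spots not well above background. A second Kcnj11 probe was lowest at ZT0, so the place of Kcnj11 in the count depends on the probe. Levels are given as log2 of the processed signal minus log2 of the 75th percentile of the same array, so a level of 0 is a signal equal to that percentile. The median of the 7 genes, as a deviation from each gene's own mean over the 6 arrays, was 1.45 (ZT0), -1.37 (ZT4) and 1.05 (ZT8) in the light and -2.92 (ZT12), 1.23 (ZT16) and 0.88 (ZT20) in the dark. In RNA of whole islets, fewer cells of a type and less RNA per cell cannot be told apart. A spot's own error, as the scanner software gave it, was 0.144 to 0.296 log2 units for the probes well above background, and 2 neighbouring levels were called separate when they differed by more than 1.96 times their combined error, which was about 0.40 for bright spots. This error covers the spot and not the mice.

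**Figure D1:**
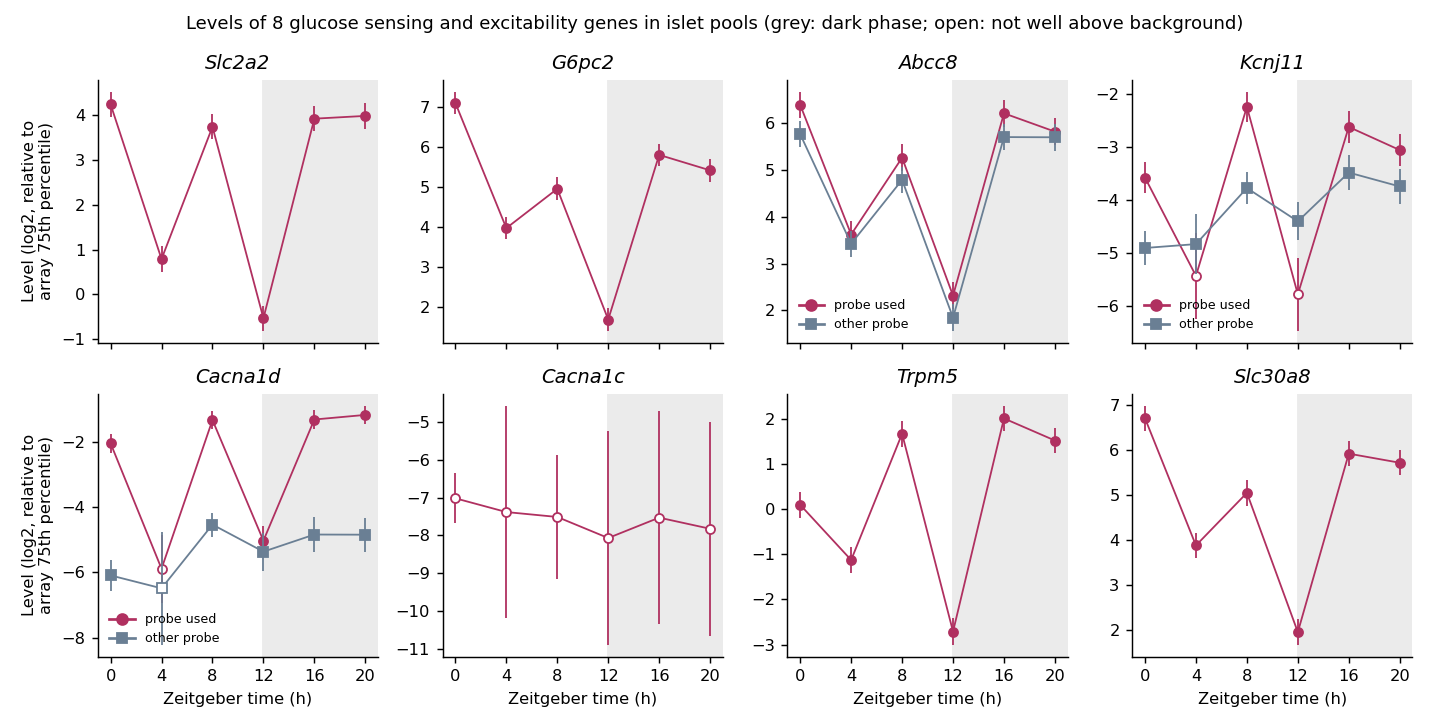
Levels of the 8 genes at the 6 zeitgeber times. The y axis is the log2 level relative to the array's 75th percentile, the x axis is zeitgeber time in hours, grey marks the dark phase, each point is 1 array, bars are 1.96 times the spot error, and squares show a second probe where there was one. Open symbols were not well above background. Every gene but Cacna1c dips at ZT4 and ZT12 on the probe used.

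Slc2a2 encodes GLUT2, the glucose transporter of the rodent beta cell. Its level (transcript NM_031197) was 4.24 (ZT0), 0.79 (ZT4) and 3.74 (ZT8) in the light and -0.53 (ZT12), 3.92 (ZT16) and 3.98 (ZT20) in the dark. The ZT0, ZT20, ZT16 and ZT8 levels were within the spot error of their neighbours in order, and ZT4 and then ZT12 stood below them, each separate from the level next above. The signal was 27.3-fold higher at ZT0 than at ZT12, 21.9-fold higher at ZT16 than at ZT12, and 2.50-fold higher at ZT4 than at ZT12. Among the other 4 arrays its levels spanned 0.50 log2 units, the smallest such span of the 7 genes.

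G6pc2 encodes the islet glucose-6-phosphatase catalytic subunit, which hydrolyses glucose-6-phosphate and so opposes glucokinase. Its level (NM_021331) was 7.09 (ZT0), 3.97 (ZT4) and 4.95 (ZT8) in the light and 1.68 (ZT12), 5.79 (ZT16) and 5.41 (ZT20) in the dark. ZT0 stood alone at the top, ZT16 and ZT20 were within spot error of each other, and ZT8, ZT4 and ZT12 followed in separate steps. The signal was 42.4-fold higher at ZT0 than at ZT12, a log2 difference of 5.41 that was larger than that of 96.68% of the genes tested. It was 17.3-fold higher at ZT16 than at ZT12. Without ZT4 and ZT12 its levels still spanned 2.14 log2 units, the widest such span of the 7 genes.

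Abcc8 encodes SUR1, the sulfonylurea receptor that regulates the beta cell KATP channel. Its level (NM_011510) was 6.39 (ZT0), 3.62 (ZT4) and 5.26 (ZT8) in the light and 2.31 (ZT12), 6.21 (ZT16) and 5.82 (ZT20) in the dark. A second probe for the same transcript gave 5.76 (ZT0), 3.42 (ZT4), 4.79 (ZT8), 1.84 (ZT12), 5.70 (ZT16) and 5.70 (ZT20). Both probes put ZT12 lowest and ZT4 next, and put ZT0, ZT16 and ZT20 together at the top with neighbours within spot error. The signal was 16.9-fold higher at ZT0 than at ZT12 on the probe used and 15.1-fold higher on the other.

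Kcnj11 encodes the pore of the same KATP channel, and its 2 probes gave unequal profiles. On the probe used for its higher mean (A_52_P402705, NM_010602) the level was -3.58 (ZT0), -5.43 (ZT4) and -2.24 (ZT8) in the light and -5.78 (ZT12), -2.62 (ZT16) and -3.05 (ZT20) in the dark. The spots at ZT4 and ZT12 were not well above background, so the ZT8 signal was at least 11.6-fold higher than that at ZT12 and the ZT16 signal at least 8.89-fold higher. Such bounds take the higher of the dim spot and the lowest detected signal on its array. The other probe (A_55_P1961477) was well above background on all 6 arrays, with levels of -4.90 (ZT0), -4.83 (ZT4) and -3.77 (ZT8) in the light and -4.40 (ZT12), -3.48 (ZT16) and -3.74 (ZT20) in the dark. On it ZT16, ZT20 and ZT8 were the high arrays and ZT12, ZT4 and ZT0 the low ones, the last of these lowest by less than the spot error, and the signal was 1.89-fold higher at ZT16 than at ZT12. Which of the probes follows the transcript was not tested.

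The L-type calcium channel genes were dim. Cacna1d (A_51_P251209, NM_001083616), which encodes a pore-forming subunit, had levels of -2.05 (ZT0), -5.89 (ZT4) and -1.34 (ZT8) in the light and -5.03 (ZT12), -1.32 (ZT16) and -1.18 (ZT20) in the dark. ZT20, ZT16 and ZT8 were within spot error of their neighbours, ZT0 was lower and separate, and ZT12 and ZT4 were lowest. The signal at ZT20 was at least 14.9-fold higher than at ZT4, where the spot was not well above background, and at ZT16 it was 13.1-fold higher than at ZT12. A second Cacna1d probe (A_55_P2125376), also not well above background at ZT4, gave -6.09 (ZT0), -6.49 (ZT4), -4.54 (ZT8), -5.37 (ZT12), -4.84 (ZT16) and -4.85 (ZT20), with a ZT16 signal 1.44-fold higher than that of ZT12 and no neighbouring levels separate. Cacna1c (NM_001256002), the other L-type pore gene, ran between -7.02 at ZT0 and -8.07 at ZT12 on its 1 probe without being well above background, so no fold is given and it was not tested.

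Trpm5 encodes a calcium-activated monovalent cation channel that depolarises beta cells and taste cells. Its level (NM_020277) was 0.09 (ZT0), -1.13 (ZT4) and 1.66 (ZT8) in the light and -2.71 (ZT12), 2.0 (ZT16) and 1.51 (ZT20) in the dark. ZT16, ZT8 and ZT20 were the high arrays, neighbours within spot error, while ZT0, ZT4 and ZT12 followed in separate steps. The signal was 26.3-fold higher at ZT16 than at ZT12 and 3.76-fold higher at ZT16 than at ZT0, so the ZT0 array that was highest for G6pc2, Slc30a8, Abcc8 and Slc2a2 was among the low ones for Trpm5. Trpm5 is also a gene of tuft cells. Of 4 tuft cell markers, Dclk1 was well above background on 6 arrays (-3.82 at ZT16 to -1.18 at ZT0), Pou2f3 on 5, and Gnat3 and Il25 on 0. The part of tuft cells in the Trpm5 level was not tested.

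Slc30a8 encodes ZnT8, which loads zinc into insulin granules. Its level (NM_172816) was 6.71 (ZT0), 3.88 (ZT4) and 5.05 (ZT8) in the light and 1.95 (ZT12), 5.92 (ZT16) and 5.72 (ZT20) in the dark. ZT0 was highest and separate, ZT16 and ZT20 were within spot error, and ZT8, ZT4 and ZT12 followed in separate steps, the same order as for G6pc2. The signal was 27.0-fold higher at ZT0 than at ZT12 and 15.7-fold higher at ZT16 than at ZT12.

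The series asked which islet genes follow a daily rhythm, and a 24 h cosine fitted over the 6 arrays with limma was the test that the design allowed. Of the 7 genes, 0 passed at an adjusted p under 0.05 and 0 at an unadjusted p under 0.05, against 0 of 24127 genes (0%) and 989 (4.1%) over the whole array. The fitted peak minus trough (SE, 6 arrays) was 3.42 ± 1.42 log2 units for G6pc2, with a limma p of 0.120 (adjusted 0.759) and a fitted peak time of ZT22.5. For Slc30a8 it was 3.13 ± 1.35 with an unadjusted limma p of 0.136, peaking at ZT22.0. Abcc8 had 2.73 ± 1.37 and an unadjusted limma p of 0.207, and Slc2a2 had 2.95 ± 1.76 and an unadjusted limma p of 0.307. Cacna1d had 2.78 ± 1.87 with an unadjusted limma p of 0.384, Trpm5 had 1.89 ± 1.79 with 0.597, and Kcnj11 had 1.18 ± 1.52 with 0.749. All 7 profiles had low arrays at ZT4 and ZT12 with a higher ZT8 array between them, and the SEs were 1.35 to 1.87. An exact permutation test of each gene's R-squared over all 720 orders of the arrays gave p values from 0.333 for G6pc2 to 0.767 for Kcnj11, where the smallest possible p is 0.0167.

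The fit turned on single arrays. With the ZT8 array left out, 7 of 7 genes reached an unadjusted limma p below 0.05, between 0.0024 for Cacna1d and 0.038 for Trpm5, but 16.7% of all genes did so too and the smallest adjusted p of the 7 was 0.236. The fitted peak minus trough of Slc2a2 was then 6.14. With ZT4 and ZT12 both left out, a choice made after the data were seen, the fitted value was 0.48 for Slc2a2, 0.86 for Abcc8, 0.84 for Cacna1d, 1.36 for Slc30a8, 1.78 for G6pc2, 1.44 for Kcnj11 and 2.24 for Trpm5, with 0 of 7 at an unadjusted limma p under 0.05.

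**Figure D2:**
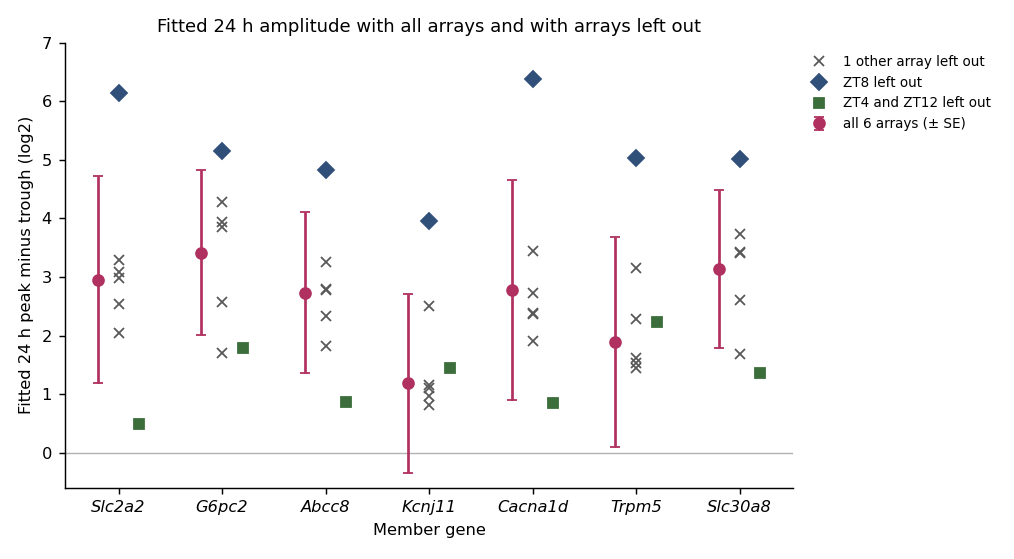
Fitted 24 h peak minus trough of each gene, in log2 units on the y axis, with genes along the x axis. Circles with bars are the fit over all 6 arrays with its SE, crosses leave out 1 array other than ZT8, diamonds leave out ZT8 and squares leave out ZT4 and ZT12. Leaving out ZT8 gives the highest value for all 7 genes (3.95 to 6.38), and leaving out ZT4 and ZT12 gives 0.48 for Slc2a2.

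Each array was then set against the median of the other 5, for the 5 genes well above background on all 6 arrays (Slc2a2, G6pc2, Abcc8, Slc30a8 and Trpm5) and for the 18928 genes like them. At ZT4, 5 of 5 were at least 2-fold lower, against 16.3% of all genes, and at ZT12 again 5 of 5, against 18.8%. At ZT12 they were lower by 3.51 to 4.45 log2 units and at ZT4 by 1.44 to 3.13. At ZT0, G6pc2, Abcc8 and Slc30a8 (3 of 5) were at least 2-fold higher, against 14.5% of all genes, by 1.13 to 2.14 log2 units, whereas Trpm5 (1 of 5) was at least 2-fold lower, against 19%. The ZT0 count of higher genes was 0 of 5 under quantile normalization (13.8% of all genes) and 0 of 5 in the authors' value table (11.7%). It was 1 of 5 with arrays centred on the median level of the endocrine markers (2.7%) and 1 of 5 without ZT4 and ZT12 (19.2%). Trpm5 alone was at least 2-fold higher at ZT8 (6.93% of all genes), ZT16 (10.5%) and ZT20 (10.4%). None of the 5 was 2-fold lower at ZT8, ZT16 or ZT20 (1.4%, 12% and 11.9% of all genes) or 2-fold higher at ZT4 or ZT12 (23.4% and 16.4%). With 1 array per time these are descriptions of the arrays.

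The difference between the highest and lowest level had a median of 4.71 log2 units over the 7 genes and 2.10 over all genes tested. Within the 1 slide and scan that held ZT8 and the dark-phase arrays, the medians were 3.97 for the 7 genes and 1.20 for all genes, so the low ZT12 levels were also present within a single scan. The ZT0 and ZT4 arrays were each read in another scan, where time and scan cannot be told apart. The ZT4 array was also the dimmest, with a 75th percentile signal of 543 against 1288 to 2181 on the others. Without ZT4 and ZT12 the medians were 1.34 for the 7 genes and 1.28 for all genes.

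Several marker lists were low on the same arrays as these genes. Markers of all endocrine cells (7 of 9 listed granule and prohormone-processing genes could be tested) had median deviations of 1.51 (ZT0), -0.76 (ZT4) and 0.12 (ZT8) in the light and -2.10 (ZT12), 0.85 (ZT16) and 0.74 (ZT20) in the dark. Beta cell markers (Ins1, Ins2, Iapp, Pdx1, Mafa, Nkx6-1 and Ucn3) were well above background on all 6 arrays, 7 of 7, and the 6 that could be tested had medians of 0.14 (ZT0), -0.37 (ZT4), 0.31 (ZT8), -1.54 (ZT12), 0.70 (ZT16) and 0.56 (ZT20). They were not alike at ZT4. The insulin genes Ins1 and Ins2 had their highest levels there (8.19 and 8.64), and Iapp its second highest (8.03). The beta cell transcription factor genes were split. Pdx1 and Nkx6-1 were at -3.96 and -1.27, their second lowest levels, but Mafa was at 2.99, its highest level, with no value at ZT0. Ucn3 was at 2.08, its second lowest level. The beta cell markers were not alike at ZT12 either, where all but Ins2 had their lowest level. Ins2 at ZT12 (7.32) was above its ZT0 and ZT8 levels (6.83 and 7.17). Ins1 (6.86) and Iapp (6.78) at ZT12 lay close to their ZT8 levels (6.93 and 6.99). Mafa, Pdx1, Nkx6-1 and Ucn3 were at 1.54, -4.48, -2.65 and 0.93 at ZT12, against 2.215, -0.83, 1.67 and 4.28 at ZT8. Alpha cell markers had medians of -1.0 at ZT4, -0.28 at ZT8 and -2.45 at ZT12. Delta and PP cell markers had -1.55 at ZT4, 0.22 at ZT8 and -2.93 at ZT12. At ZT8 the median of the 7 genes was 1.05, but they were not alike. G6pc2, Slc30a8 and Abcc8 deviated from their means by only 0.13, 0.18 and 0.33 there, and the others by 1.05 to 1.54. Duct cell markers, which are not endocrine, had medians of -0.45 at ZT4 and -2.15 at ZT12. Acinar cell markers differed between these arrays, with a median of 0.50 at ZT4, their highest, and -1.30 at ZT12, their lowest. Their levels summed to 1181 at ZT4 and 287.9 at ZT12, and to between 491.7 and 1108 on the other arrays. Lymphocyte markers were highest at ZT4 and ZT12 (median deviations of 2.71 and 2.14), with 10 of 10 genes well above background on every array and a summed level, on the linear scale of the 75th percentile, of 58.3 (ZT0), 333 (ZT4) and 82.8 (ZT8) in the light and 225 (ZT12), 28.1 (ZT16) and 14.5 (ZT20) in the dark. The 4 macrophage markers on the array, all detected throughout, summed to 32.0 (ZT0), 210 (ZT4), 54.2 (ZT8), 131 (ZT12), 14.2 (ZT16) and 12.6 (ZT20). Hepatocyte markers summed to 144.7 at ZT20 and to at most 0.441 elsewhere, and intestinal epithelium markers to 134.5 at ZT4 and to at most 14.7 elsewhere. The part of these other cells in the levels of the 8 genes was not tested.

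**Figure D3:**
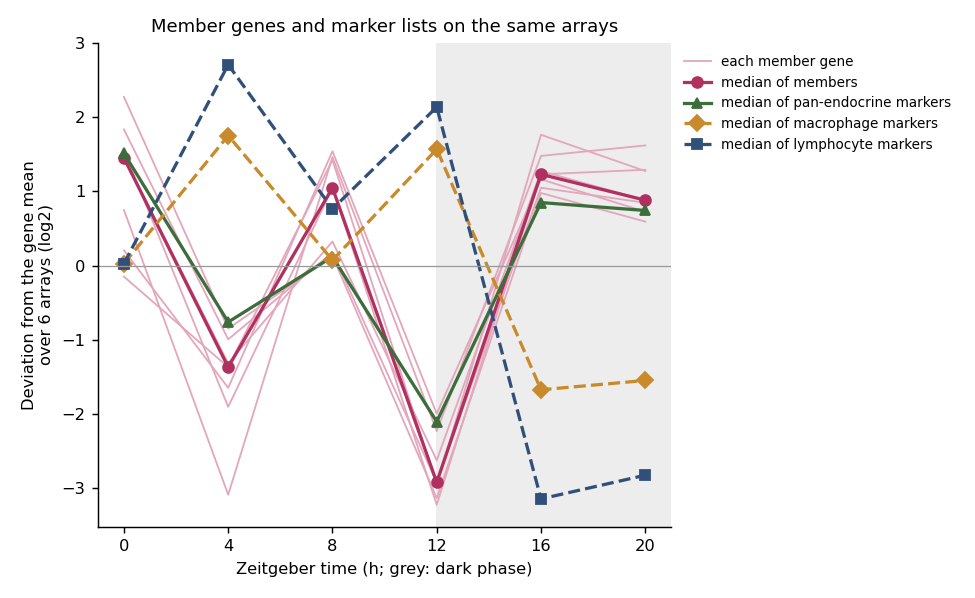
Deviation from the gene mean over the 6 arrays, in log2 units on the y axis, against zeitgeber time in hours, with the dark phase in grey. Thin lines are the 7 tested genes, circles their median, triangles the median of the endocrine markers, diamonds that of macrophage markers and squares that of lymphocyte markers. The genes and the endocrine markers are low at ZT4 and ZT12, where lymphocyte markers are at 2.71 and 2.14.

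Scaling each array to the median of the endocrine markers, in place of its 75th percentile, sets the genes relative to those markers. It shifts every gene on an array by that array's median endocrine deviation given above, less the mean of those medians. The endocrine centring in the fold counts and in the last section instead used the median of the marker levels themselves, so its values differ from those here. On the scale set by the deviations, the highest minus lowest level of the 7 genes had a median of 2.07 log2 units, against 4.71 on the 75th percentile scale. Over all genes tested it was 3.97, against 2.10. The scaling puts the reverse of the endocrine swing into genes that do not follow those markers. A smaller value for the 7 genes than for all genes is therefore built into this scale and is no result about them. Slc2a2 deviated from its mean by 0.10 (ZT0), -1.08 (ZT4) and 0.99 (ZT8) in the light and -1.06 (ZT12), 0.44 (ZT16) and 0.61 (ZT20) in the dark, so ZT4 and ZT12 remained its low arrays. G6pc2 gave 0.82 (ZT0), -0.03 (ZT4), 0.07 (ZT8), -0.97 (ZT12), 0.19 (ZT16) and -0.09 (ZT20), and kept its high ZT0 and low ZT12. Abcc8 spanned 0.98 log2 units and Slc30a8 1.14, the smallest of the 7. Trpm5 gave -1.60 (ZT0), -0.55 (ZT4), 1.37 (ZT8), -0.79 (ZT12), 0.97 (ZT16) and 0.59 (ZT20), with ZT0 as its lowest array. Cacna1d kept its lowest level at ZT4 (-2.27), where its spot was not well above background. Kcnj11, whose ZT4 and ZT12 spots were not well above background either, gave -0.83 at ZT4 and 0.17 at ZT12. Those values rest on dim spots, which also enter the gene means, so they cannot be read as levels.

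**Figure D4:**
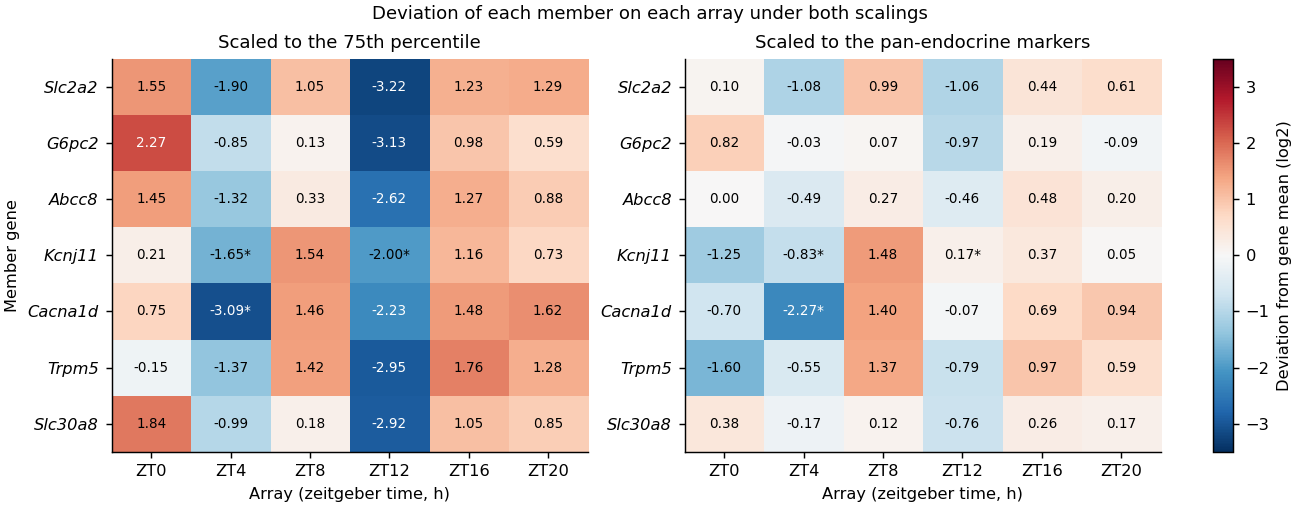
Deviation of each gene (rows) from its own mean on each array (columns), in log2 units, printed in the cells and coloured from blue (low) to red (high). The left panel is scaled to the array's 75th percentile and the right panel to the median deviation of the endocrine markers. An asterisk marks a spot not well above background. ZT12 runs from -3.22 to -2.0 on the left and from -1.06 to 0.17 on the right, where 0.17 is the dim Kcnj11 spot.

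The genes did not all share one profile. Among the 5 genes detected on all arrays, the root mean square difference between centred profiles over the 6 arrays was smallest for G6pc2 with Slc30a8 (0.234 log2 units) and for Abcc8 with Slc30a8 (0.262). It was largest for G6pc2 with Trpm5 (1.22) and for Slc30a8 with Trpm5 (1.03). Among 13842 named genes detected on all 6 arrays, the nearest to Slc2a2 were Glb1l2 (0.150), Sobp (0.151) and Marchf4 (0.231). The nearest to G6pc2 were Enho (0.230), Ddc (0.233) and Slc30a8 (0.234), and to Slc30a8 Nrcam (0.148), Ddc (0.175) and Tox3 (0.188). Ddc encodes aromatic amino acid decarboxylase. Abcc8 was nearest to Mtcl1 (0.151), Ccl28 (0.153) and Mlxipl (0.154), the last of which encodes the glucose-responsive transcription factor ChREBP. Trpm5 was nearest to Gpr142 (0.147), Slc6a17 (0.225) and Ppp1r1a (0.230), and Gpr142, which encodes a tryptophan receptor of islets, shared its low ZT0 array, with levels of -2.40 (ZT0), -3.52 (ZT4) and -0.78 (ZT8) in the light and -4.91 (ZT12), -0.20 (ZT16) and -0.57 (ZT20) in the dark. These likenesses are over 6 arrays of the same pools.

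The rest of the pathway was listed as 54 further genes of glucose metabolism, ion channels, zinc transport and ion pumps, of which 49 could be tested. The 24 h cosine called 0 of the 49, and 0 had an unadjusted limma p under 0.05. Of the 49, 30 (61.2%) were lowest at ZT4 or ZT12, against 44.5% of all genes tested, and 16 (32.7%) were highest there, against 38.9%. Of 8 potassium channel genes, 7 were lowest at ZT4 or ZT12, and their median deviation was -0.81 at ZT4 and -1.48 at ZT12. Among them Kcnma1, a large-conductance calcium-activated channel gene, had levels of 0.09 (ZT0), -3.20 (ZT4) and -0.46 (ZT8) in the light and -3.09 (ZT12), -0.16 (ZT16) and 0.03 (ZT20) in the dark. Kcnq1, a voltage-gated channel gene, was instead highest at ZT4 (1.46) and lowest at ZT12 (-0.48), and Kcnh6, another voltage-gated channel gene, was highest at ZT16 (-1.72) and not well above background on 2 arrays.

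Glucose metabolism was mixed, with 6 of 12 genes (50%) lowest at ZT4 or ZT12 and 5 (41.7%) highest there, both near the shares over all genes. Pfkfb2, an enzyme that makes the glycolytic activator fructose-2,6-bisphosphate, resembled the transporter genes, with levels of 0.77 (ZT0), -3.24 (ZT4) and 0.49 (ZT8) in the light and -3.45 (ZT12), 0.47 (ZT16) and 0.78 (ZT20) in the dark. Slc2a1, which encodes the widely expressed transporter GLUT1, had levels of 3.08 (ZT0), 3.26 (ZT4) and 2.46 (ZT8) in the light and 3.54 (ZT12), 1.58 (ZT16) and 1.42 (ZT20) in the dark, and so was highest on the array where Slc2a2 was lowest. Glud1, the mitochondrial glutamate dehydrogenase gene, varied by 1.22 log2 units and was highest at ZT12 (3.95).

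The 2 other KATP subunit genes had their highest level at ZT4 or ZT12. Kcnj8, a KATP pore gene of smooth muscle, had levels of -2.62 (ZT0), -0.99 (ZT4) and -2.96 (ZT8) in the light and -1.73 (ZT12), -5.18 (ZT16) and -4.66 (ZT20) in the dark. Abcc9, which encodes SUR2, was highest at ZT12 (-0.66) and lowest at ZT16 (-3.29), with ZT4 (-2.79) as its second lowest array. Kcnj8 had the smallest unadjusted limma p of the 49, 0.0564 (adjusted 0.759). Smooth muscle markers summed to 38.9 (ZT0), 139 (ZT4) and 38.7 (ZT8) in the light and 53.1 (ZT12), 17.0 (ZT16) and 14.5 (ZT20) in the dark, and their part in the Kcnj8 and Abcc9 levels was not tested.

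Among the calcium channel subunits, Cacna2d1, an auxiliary subunit gene, was low at ZT4 (-0.13) and ZT12 (-0.74) and lay between 1.94 and 2.89 on the other arrays. Cacnb3, another auxiliary subunit gene, was highest at ZT12 (1.12) and lowest at ZT0 (-1.90), with an unadjusted limma p of 0.0572. Scn8a, a voltage-gated sodium channel gene, had a level of 6.02 at ZT0 and lay between -0.48 and 0.52 on the other 5 arrays, the widest range of the pathway genes (6.50 log2 units) and one that rested on the ZT0 array. Scn3a, a sodium channel gene of beta cells, was highest at ZT16 (-0.51) and lowest at ZT12 (-3.27). Of other TRP channel genes, Trpc1 was not well above background on 2 arrays and Trpm2, a channel gene also known in immune cells, was highest at ZT4 (-0.98). The zinc transporter genes Slc30a4, Slc30a5 and Slc30a6 spanned 1.17, 1.67 and 1.87 log2 units, against 4.76 for Slc30a8. Atp2a2, the SERCA2 calcium pump gene of the endoplasmic reticulum, was low at ZT4 (1.08) and ZT12 (0.32) and lay between 3.10 and 3.99 on the other arrays. The chloride channel genes Lrrc8a, Clcn3 and Ano1 spanned 0.81, 1.81 and 1.82 log2 units.

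**Figure D5:**
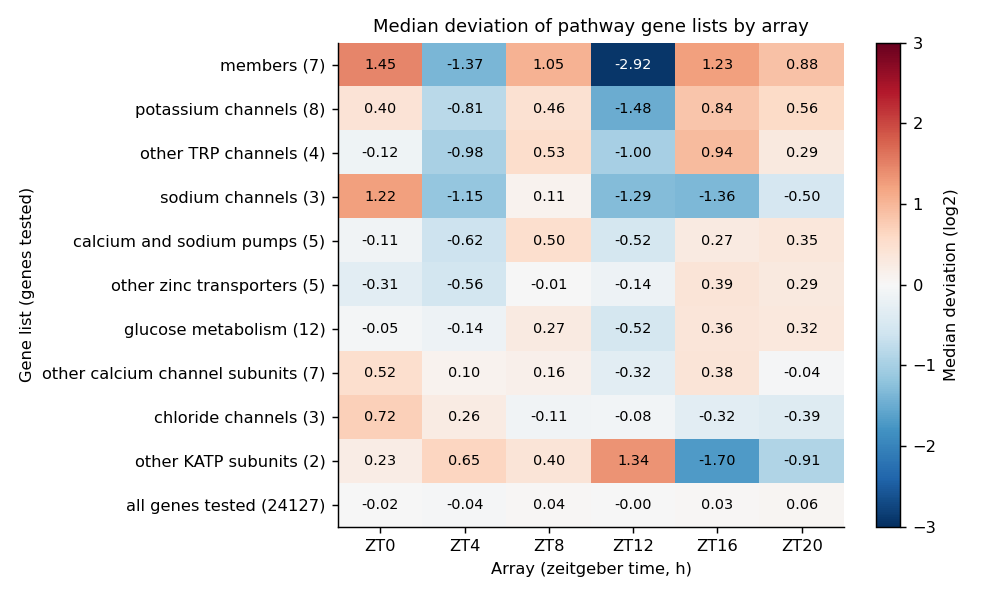
Median deviation from the gene mean of each pathway list (rows, with the number of genes tested) on each array (columns), in log2 units, printed in the cells and coloured from blue (low) to red (high). The 7 genes described first reach -2.92 at ZT12, the potassium channels -1.48, and the other KATP subunits 1.34.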

How the data were processed

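Scanner output was deposited for 6 one-colour arrays, 1 per time point. Per the submitters' processing notes, Agilent Feature Extraction 11.0.1.1 made these files. Per the file headers, the deposited processed signal is a linear intensity after background subtraction, and the deposited well-above-background and outlier flags are other columns of 0 or 1. The authors' value table holds log2 values for 30170 probes; each deposited column correlated at 0.9987 to 0.9998 with the log2 signal of its own array, and its normalization steps are not given in the sources used here. Its scale is log2 and genes were not centred.

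Control spots and outlier-flagged spots were removed and spots of a probe averaged, giving 39429 probes. Probe transcript identifiers matched RefSeq names of GRCm38.p6 for 27234 probes (69.07%); the rest kept the file's name. Levels were log2 signal minus log2 of the array's 75th percentile. A probe was tested when well above background on at least 3 of 6 arrays with no array wholly flagged (28795 probes), and the probe of highest mean stood for its gene (24127 genes). A 24 h cosine was fitted with limma 3.58.1 in R 4.3.3 (3 residual degrees of freedom), with the moderated F test and Benjamini-Hochberg adjustment over all genes at 0.05. The fit was tested on simulated data. Other scalings, filters, probes, periods, covariates and left-out arrays were tried as alternatives.

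Well-above-background spots made up 66.1% (ZT4) to 84.4% (ZT0) of each array, and 0 were saturated. ZT4 was the dimmest array, with a 75th percentile signal of 543 against 1288 to 2181 elsewhere. Its lowest detected level, -5.08, was the highest of the 6 arrays, against -6.94 to -5.24 elsewhere. The Kcnj11 and Cacna1d spots not well above background at ZT4 were on this array. Outlier flags marked 1743 spots at ZT0 and 166 to 247 elsewhere. Precision is limited by the number of arrays, and with no replicates p-values measure only scatter around the cosine. ZT8, ZT12, ZT16 and ZT20 shared a slide and a scan; ZT4 and ZT0 were each scanned apart. The genes, lists and tests were chosen with earlier results of these data known. Genes named were the 8 members, the 2 highest and the widest-ranging gene of each pathway list, the 3 nearest profiles of each member detected on all arrays, and the cell type markers; 1 gene that this rule selects is not reported here. Spot errors of 0.144 to 0.296 log2 units came from the deposited error column.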

Additional observations from a re-analysis of the deposited data

How the results depend on the processing

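No paired analysis was possible because each time point had 1 array. Each of the 7 tested genes stayed above an adjusted p of 0.05 in every setting run, and 0 of the 49 other pathway genes passed in any. Of 381 values recomputed, 22 were counted as moved and 359 were not. Counts and median deviations were judged by a change past 1.5-fold, and fitted amplitudes only by the adjusted p crossing 0.05. No amplitude crossed it, so the 359 do not measure how stable the amplitudes were. The Slc2a2 amplitude ran from 0.48 without ZT4 and ZT12 to 6.14 without ZT8. The median deviation at ZT0 was 0.79 under quantile normalization, 0.78 in the authors' value table and 0.23 with arrays centred on the endocrine markers. That centring gave -0.78 at ZT4, -0.80 at ZT12 and 0.40 at ZT16. At ZT8 the median was 0.37 over genes well above background on all arrays and 0.42 with each gene's second probe. Of 5 genes, 2 were at least 2-fold lower at ZT4 after endocrine centring, against 4.5% of all genes. At least 2-fold higher at ZT0 were 0 under quantile normalization (13.8% of all genes) and 0 in the authors' value table (11.7%). The ZT0 count was 1 after endocrine centring (2.7%) and 1 without ZT4 and ZT12 (19.2%). At ZT8, ZT16 and ZT20 the count was 0 within the shared slide (11.6%, 8.12% and 6.42%). It was also 0 on those arrays without ZT4 and ZT12 (11.7%, 6.1% and 5.16%), and median centring gave 4 at ZT16 (11.6%). The last 2 of these settings were chosen after seeing the data. The cause of these moves was not tested. With the lymphocyte mean as a covariate, Trpm5 had an unadjusted limma p of 0.00988 (adjusted 1), and the 6 other genes stayed above 0.05. Kcnj11 (0.0503), G6pc2 (0.0506), Slc30a8 (0.0533) and Slc2a2 (0.0549) lay just above it by the same limma test. Under this covariate 3.46% of all genes tested had an unadjusted limma p under 0.05, and the fit had fewer residual degrees of freedom. The fitted peak times of the 7 genes then ran from ZT3.5 to ZT6.6, against ZT18.7 to ZT22.5 without the covariate. The low signal of Cacna1c, Kcnj11 and Cacna1d over background limits what can be said of them.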
